A study of Homo sapiens with 9 samples.

Results

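Glycolysis converts glucose to pyruvate in the cytosol, and lactate dehydrogenase then turns pyruvate into lactate. The messages of its enzymes are among the abundant housekeeping mRNAs of dividing human cells and are translated on cytosolic ribosomes. Such a message receives its poly(A) tail in the nucleus, where the nuclear poly(A) binding protein (PABPN) coats new tails, and after export the tail is held mainly by its cytoplasmic counterpart (PABPC). This account follows 10 of these messages, GPI, ALDOA, TPI1, GAPDH, PGK1, PGAM1, ENO1, PKM, LDHA and LDHB, in RNA immunoprecipitation (RIP) of either protein. They were chosen by gene symbol, as abundant, stable and cytoplasmic messages of glycolysis, with earlier results of these data known. The study reports that long-lived and cytoplasmic RNAs tended to go with PABPC, so this choice is not independent of the calls below. Stability and location were not measured here. These messages are 10 of 51274 gene identifiers. All 10 were present in the table of each RIP and passed the filter on low values.

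The cells were HEK293T, an established line from human embryonic kidney that carries the SV40 large T antigen, and all were crosslinked with 0.1% formaldehyde for 10 min. Total RNA depleted of ribosomal RNA was sequenced from 3 inputs, 3 PABPN RIPs and 3 PABPC RIPs, where the 3 biological replicates each gave 1 lysate that was divided between the 2 antibodies. The groups therefore differ only in whether RNA was taken before precipitation or with which antibody, and no gene was altered or drug given. According to the study, RIPs with isotype control antibodies gave too little RNA to sequence, so a value for RNA held by beads alone is not part of these comparisons. The estimated depth ran from 36.5 to 52.2 M reads on the listed genes per library. The values are group means and fold changes from the authors' DESeq2 tables, in which a log2 fold change sets a RIP against input and the standard error (SE) beside it carries the spread between replicates. Values per library were not analysed here. A fold change is relative to the other RNAs of the library, and in a bulk lysate fewer cells with a message and less of it per cell cannot be told apart.

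Because both proteins bind poly(A) tails, the 3′ ends at which those tails are added are shown first. The last 50 bases of the reference transcript were searched on the sense strand for the hexamers AATAAA and ATTAAA, which direct cleavage and polyadenylation. AATAAA was found in 7 of the 10 members, a share of 70%, against 66.8% of the 12443 protein coding genes that were tested here and have a reference transcript. PGK1 had ATTAAA instead, which is the form found, without AATAAA, in 15.3% of those genes. Neither run of letters was in the window of LDHA or TPI1, which says nothing of how their ends are made. The sequences below are from GENCODE release 44 on hg38, 5′ to 3′ on the sense strand in DNA letters, with the hexamer in capitals, 4 bases before it and up to 30 bases in all, ending at the annotated cleavage site where that comes sooner. All lie in the 3′ untranslated part of the last exon.
GPI: cttcAATAAAtctgtgcttttgttccttc
ALDOA: gccaAATAAAcagctatttaaggggga
GAPDH: catcAATAAAgtaccctgtgctcaacca
PGK1: atatATTAAAatgtaaatggtggca
PGAM1: gtatAATAAAggagtgatgtgcaatagct
ENO1: tcaaAATAAAaagcctcagtgacccatgag
PKM: tgtcAATAAAcaacagctgaagcacc
LDHB: aacaAATAAAattaactattgtagtgtg

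On hg38 these windows are at chr19:34402385-34402413 (GPI), chr16:30070388-30070414 (ALDOA), chr12:6538344-6538371 (GAPDH), chrX:78129271-78129295 (PGK1) and chr10:97433416-97433444 (PGAM1), all on the plus strand. Those of ENO1 at chr1:8861004-8861033, PKM at chr15:72199029-72199054 and LDHB at chr12:21635342-21635369 are on the minus strand. The members without a window are TPI1, at chr12:6867119-6870948, and LDHA, at chr11:18394560-18408425, both on the plus strand. Across the tested protein coding genes, the median log2 fold change with PABPN was -0.093 for genes with AATAAA and -0.099 for genes with neither hexamer, and with PABPC it was 0.22 and 0.27. The hexamer classes thus had similar medians in both RIPs.

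All 10 messages were depleted from PABPN and all 10 were enriched with PABPC (the authors' DESeq2 test, adjusted p of at most 0.01, log2 change beyond 0.5 and a mean normalised count, baseMean, above 50). Over all genes that could pass, 14.6% were depleted from PABPN and 17.5% enriched with it, while 38.4% were enriched with PABPC and 32.4% depleted from it. The members' median log2 fold change was -1.60 with PABPN, where the median over the 14581 genes tested in both RIPs was -0.058. With PABPC it was 1.30, where the median over those genes was 0.11. Together the 10 messages took 0.514% of the reads on listed genes in input, 0.181% in the PABPN RIP and 1.17% in the PABPC RIP. To set the members beside other abundant messages, protein coding genes with an input mean at or above that of PGAM1, the member with the fewest reads, were counted as well, a comparison chosen after seeing the data. Of these 5463 genes, 22.1% were depleted from PABPN and 29.3% were enriched with PABPC. Their input means include intron reads and are not divided by length, so this set is not matched to the members in length or introns. Its median log2 fold change was -0.21 with PABPN and -0.14 with PABPC, against -0.093 and 0.24 over the 12452 tested protein coding genes. The PABPN and PABPC comparisons use the same 3 input libraries.

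**Figure D1:**
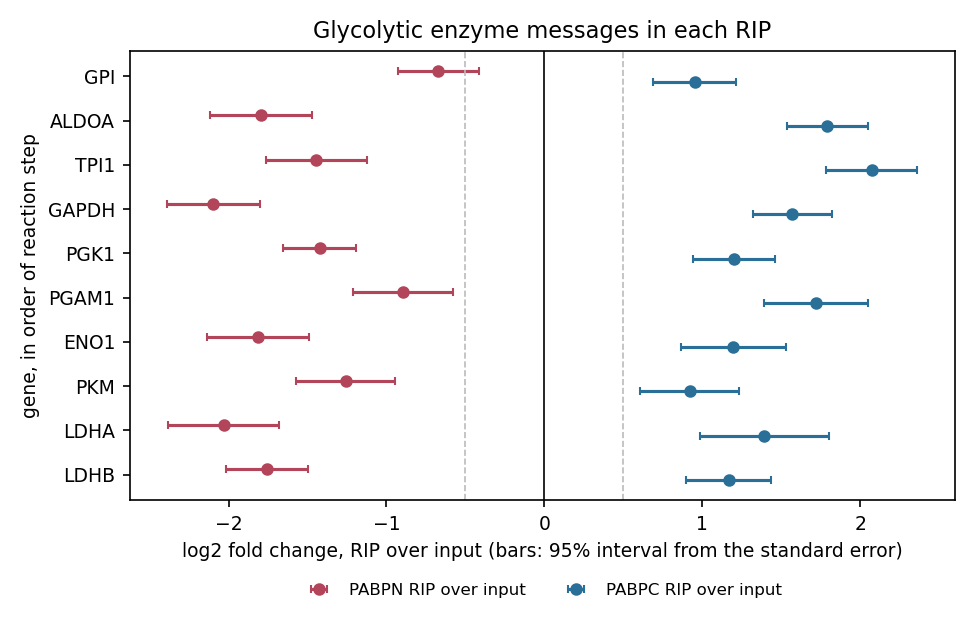
Log2 fold change over input of the 10 glycolytic enzyme messages in the PABPN RIP (red) and the PABPC RIP (blue), 3 libraries a group, with bars for the 95% interval from the standard error and dashed lines at -0.5 and 0.5. All PABPN values lie from -2.10 to -0.67 and all PABPC values from 0.92 to 2.07.

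The first group of enzymes prepares and splits the sugar. GPI, which turns glucose phosphate into fructose phosphate, took 287 of every 1000000 reads on listed genes (RPM) in input, 198 in the PABPN RIP and 487 in the PABPC RIP. In the authors' tables its log2 fold change was -0.67 (SE 0.130) with PABPN, whereas that with PABPC was 0.95 (SE 0.134). These gave GPI the weakest PABPN depletion of the 10. ALDOA, the aldolase that cleaves fructose bisphosphate into 2 trioses, went from 461 RPM in input to 146 with PABPN and 1398 with PABPC. Its log2 fold changes, -1.79 (SE 0.164) and 1.79 (SE 0.131), were nearly the same size in opposite directions. TPI1, the isomerase that interconverts those trioses, took 321 RPM in input, 129 in the PABPN RIP and 1181 in the PABPC RIP. TPI1 had the highest PABPC fold change of the 10, at 2.07 (SE 0.147) on the log2 scale, or 4.21-fold (95% interval 3.44 to 5.14), and stood at -1.44 (SE 0.162) with PABPN.

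The second group carries the trioses to pyruvate and yields ATP and NADH. GAPDH, the dehydrogenase that makes the NADH, took 1009 RPM in input, 259 in the PABPN RIP and 2620 in the PABPC RIP. Its depletion from PABPN, -2.10 (SE 0.149) or 4.27-fold (95% interval 3.49 to 5.23), was the strongest of the 10, beside 1.57 (SE 0.127) with PABPC. PGK1, the kinase of the first ATP-forming step, took 267 RPM in input, 109 in the PABPN RIP and 536 in the PABPC RIP. On the log2 scale PGK1 changed by -1.42 (SE 0.118) with PABPN and by 1.20 (SE 0.131) with PABPC. PGAM1, the mutase that moves the phosphate, had the fewest reads of the 10, with 47.1 RPM in input, 27.8 in the PABPN RIP and 136 in the PABPC RIP. Its log2 fold changes were unequal in size, -0.90 (SE 0.161) with PABPN and 1.72 (SE 0.168) with PABPC. ENO1, the widely expressed enolase, took the most reads of the 10 in input, 1218 RPM, against 380.4 with PABPN and 2444 with PABPC, for log2 fold changes of -1.81 (SE 0.166) and 1.20 (SE 0.169). PKM, the pyruvate kinase of the last ATP-forming step, took 624 RPM in input, 287 in the PABPN RIP and 1035 in the PABPC RIP. PKM had the lowest PABPC fold change of the 10, 0.92 (SE 0.160), with -1.26 (SE 0.160) for PABPN.

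The lactate dehydrogenase subunits close the pathway. LDHA, the subunit that favours lactate, went from 374 RPM in input to 101 with PABPN and 861 with PABPC. LDHB, the subunit common in heart, went from 531 RPM to 173 with PABPN and 1045 with PABPC. The log2 fold changes were -2.03 (SE 0.180) and 1.39 (SE 0.209) for LDHA, and -1.76 (SE 0.132) and 1.17 (SE 0.138) for LDHB. The subunits differed from each other by -0.27 with PABPN (95% interval -0.71 to 0.16) and by 0.23 with PABPC (95% interval -0.26 to 0.72), LDHA minus LDHB, both intervals spanning 0. Over the 10 members, the adjusted p ran from 1.17e-42 for GAPDH to 1.70e-06 for GPI with PABPN, and from 5.51e-44 for TPI1 to 2.65e-08 for PKM with PABPC (DESeq2). In the shares of reads, every member stood in the order PABPN RIP, input, PABPC RIP.

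**Figure D2:**
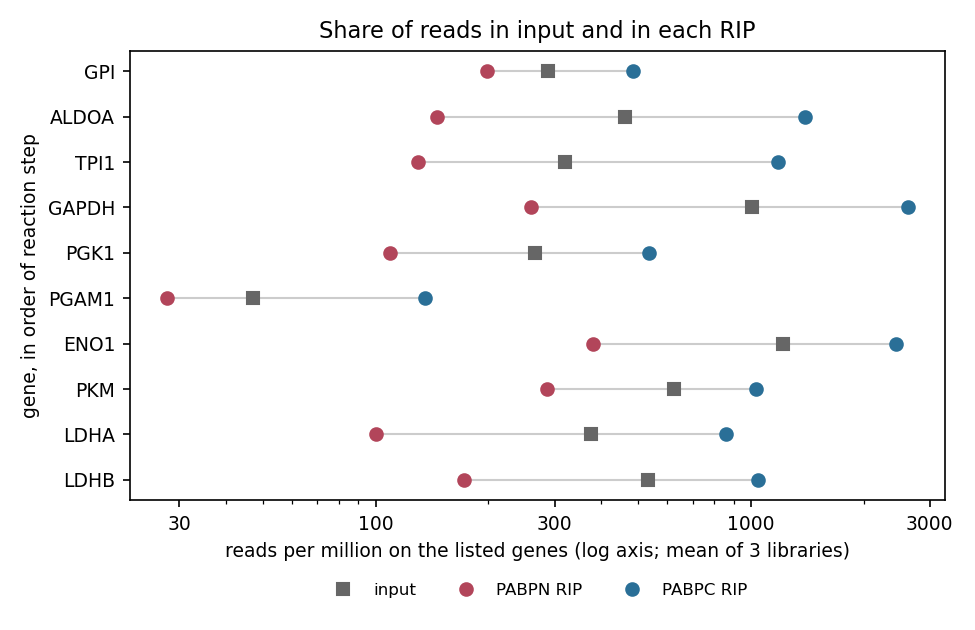
Share of reads on listed genes, in RPM on a log axis, of each of the 10 messages in input (grey squares), the PABPN RIP (red) and the PABPC RIP (blue), each a mean over 3 libraries worked out from the authors' means and fold changes, with no error for single points. ENO1 has the highest input value, 1218, and PGAM1 the lowest, 47.1.

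RPM use the summed means of the listed genes as total, whereas the authors' fold changes use DESeq2 size factors. The change of scale adds 0.13 to every log2 fold change with PABPN and -0.19 to every one with PABPC, and under it all 10 members kept their calls in both RIPs. It moved the split over all genes in the PABPN RIP, where enriched genes made up 54.6% of those called with the authors' scaling and 69.5% with this one. Levels between genes can be set side by side only per length. In input, GAPDH was highest at 421 RPM per kilobase of exon, ahead of ENO1 at 234, LDHB at 178 and TPI1 at 119, and PGAM1 was lowest at 18.5. In the PABPC RIP, GAPDH stood at 1094 RPM per kilobase, ENO1 at 469, TPI1 at 437 and LDHB at 350.2, while GPI was lowest at 45.6. These levels rest on the deposited gene length, which equals the exon union of GENCODE 44 in 7 of the 10 members and is 5579 bases against 3829 in ALDOA, whose level per kilobase is the least certain. Reads in introns are in the numerator and introns are not in the length.

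To compare the RIPs with each other, the PABPC log2 fold change of each gene was subtracted from its PABPN log2 fold change, which takes out the input level. All 10 members were higher with PABPC than with PABPN, where 33.4% of the 14581 tested genes were, 36.1% were higher with PABPN, and 33.5% of the abundant protein coding genes were higher with PABPC. The difference in log2 fold change was -3.66 (SE 0.196) for GAPDH, -3.58 (SE 0.210) for ALDOA, -3.52 (SE 0.219) for TPI1 and -3.42 (SE 0.276) for LDHA. Under DESeq2 size factors GAPDH was thus 12.7-fold (95% interval 9.72 to 16.6) higher in the PABPC RIP than in the PABPN RIP, and scaling by total reads, as in RPM, brings its difference to -3.34. ENO1 at -3.01 (SE 0.237), LDHB at -2.92 (SE 0.191), PGK1 at -2.62 (SE 0.176) and PGAM1 at -2.62 (SE 0.233) followed, and PKM stood at -2.18 (SE 0.226). GPI had the smallest difference, -1.62 (SE 0.187), or 3.08-fold (95% interval 2.39 to 3.97). The adjusted p ran from 2.73e-76 for GAPDH to 1.59e-17 for GPI (two-sided normal test with Benjamini-Hochberg adjustment over all tested genes, with DESeq2's standard errors). The median difference was -2.97 over the members and 0.068 over all tested genes.

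Among the 12452 tested protein coding genes, the members ranked from 60th lowest (GAPDH) to 1369th lowest (GPI) with PABPN, and 5 of them were among the lowest 100. With PABPC the ranks were less extreme, from 408th highest (TPI1) to 3541st highest (PKM). By the difference between the RIPs, 4 members were among the 100 genes shifted furthest toward PABPC, namely GAPDH, ALDOA, TPI1 and LDHA. Within each order, no neighbouring members differed beyond the 95% interval of their gap. The ends did, with a gap of 1.42 (error 0.198) between GAPDH and GPI for PABPN, 1.15 (error 0.217) between PKM and TPI1 for PABPC, and 2.04 (error 0.271) between GAPDH and GPI for the difference.

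**Figure D3:**
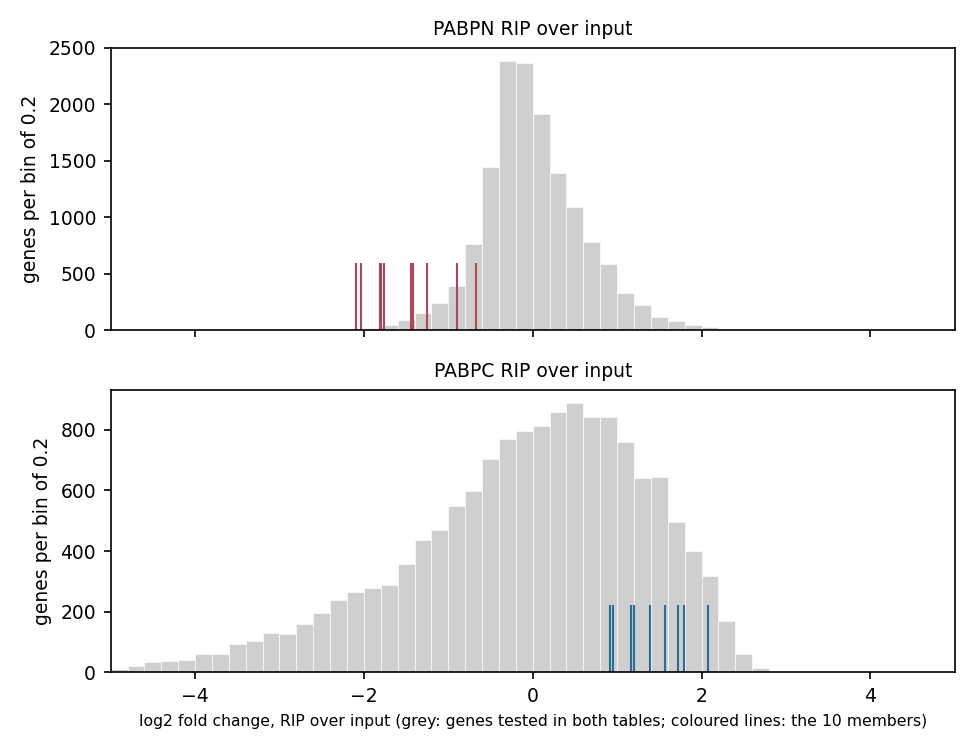
Number of genes per bin of 0.2 in log2 fold change over input, for the 14581 genes tested in both RIPs (grey, upper panel PABPN, lower panel PABPC), with a coloured line at the value of each of the 10 members. The members lie in the lower tail for PABPN, 5 of them among the lowest 100 protein coding genes, and in the upper part of the PABPC distribution, and in each panel 20 genes fall outside the axis.

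The reference transcripts of the 10 genes are compact, with a median mRNA of 1792 bases against 3514 over the tested protein coding genes. Their median coding sequence was 1128 against 1449, and their median 3′ untranslated length 593 against 1396. The deposited gene length, used for the levels per kilobase, was similar, with a median of 5326.5 against 5407. The median exon number was 9.5 against 9. The summed intron length of the reference transcript had a median of 13764 bases against 27428, and within the members it ran from 2067 in TPI1, 2570 in GAPDH and 3015 in ALDOA to 29857 in PKM and 33093 in GPI. The 3 genes with the shortest introns had PABPC log2 fold changes of 2.07, 1.57 and 1.79, and the 2 with the longest had 0.92 and 0.95. Across the 10 members, the rank correlation (Spearman) of intron length with the PABPC fold change was -0.94 and with the PABPN fold change 0.52. Across the 10 other tested glycolysis genes it was -0.54 with PABPC and -0.70 with PABPN, so the sign of the PABPN value was opposite to that in the members. Across the 12443 protein coding genes it was -0.77 with PABPC and -0.15 with PABPN. Of the lengths compared in the members, intron length had the strongest correlation with PABPC. Gene length as deposited gave -0.58 with PABPC and 0.33 with PABPN, and mRNA length gave -0.45 and 0.60. These are correlations across genes, which are not independent replicates and share libraries, and intron and exon reads were counted together for every gene. The part of intron reads in the members' values was not tested.

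**Figure D4:**
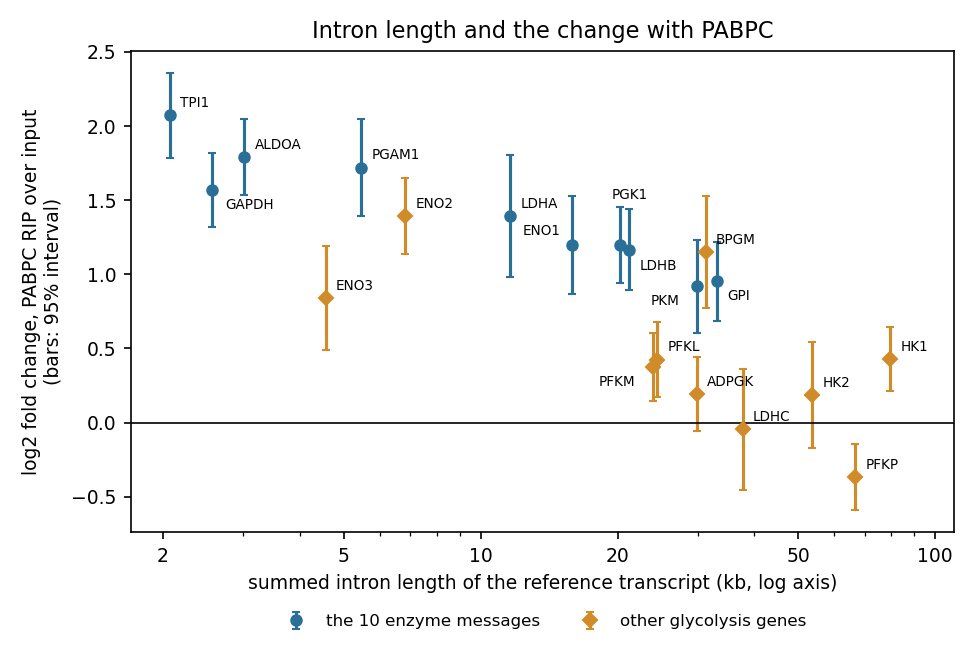
Log2 fold change of the PABPC RIP over input, with bars for the 95% interval, against the summed intron length of the reference transcript in kilobases (log axis), for the 10 enzyme messages (blue circles) and the 10 other tested glycolysis genes (orange diamonds). Among the 10 messages the values fall from 2.07 in TPI1, with introns of 2067 bases in all, to 0.95 in GPI, with 33093, at a rank correlation of -0.94, and among the other 10 it is -0.54 (with PABPN, not plotted, 0.52 and -0.70).

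The remaining genes of glycolysis, a list of 20 isozymes and kinases, served as the nearest comparison. Because the members were chosen as abundant messages, the 2 lists are not matched for level. In this list, 10 had baseMean above 50 in both tables, with a median input mean of 3269 normalised counts against 19911 in the members. Of these 10, 3 were depleted from PABPN, 1 was enriched with it, and 3 were enriched with PABPC, with median log2 fold changes of -0.25 and 0.40. The hexokinases, which commit glucose to the cell, were depleted from PABPN, HK1 at -0.95 (SE 0.121) and HK2 at -1.07 (SE 0.187), and were not called with PABPC, at 0.43 (SE 0.110) and 0.18 (SE 0.182). ADPGK, an ADP-dependent glucokinase, passed in neither RIP, at 0.46 (SE 0.108) and 0.19 (SE 0.127). The phosphofructokinases, which control the committed step, passed in neither RIP: PFKL stood at -0.22 (SE 0.148) and 0.43 (SE 0.130), PFKM at -0.43 (SE 0.121) and 0.37 (SE 0.116), and PFKP at -0.28 (SE 0.131) and -0.37 (SE 0.114). In the difference between the RIPs, PFKL at -0.64 (SE 0.197) and PFKM at -0.80 (SE 0.167) were still higher with PABPC, as were HK1, HK2 and BPGM, 5 of the 10 in all, and the value of PFKP was 0.084 (SE 0.173).

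Some members have a close relative, and these pairs were compared within each RIP after their values were seen. ENO2, the enolase of neurons, was enriched in both RIPs, with log2 fold changes of 1.10 (SE 0.129) for PABPN and 1.39 (SE 0.131) for PABPC. ENO1 lay 2.92 below it on the log2 scale with PABPN (ENO1 minus ENO2 -2.92, 95% interval -3.33 to -2.51), whereas with PABPC the interval spanned 0 (-0.62 to 0.22). ENO3, the enolase of muscle, stood at 0.50 (SE 0.211), not past the cut-offs, and 0.84 (SE 0.178), enriched, so that ENO1 minus ENO3 was -2.31 with PABPN (95% interval -2.84 to -1.78) and 0.36 with PABPC (95% interval -0.13 to 0.84). In contrast, LDHC, the lactate dehydrogenase of testis, was at -0.012 (SE 0.239) and -0.043 (SE 0.208), and LDHA differed from it in both RIPs, by -2.02 (95% interval -2.61 to -1.43) and 1.44 (95% interval 0.86 to 2.01). BPGM, the mutase of red cells, was depleted in the PABPN RIP, at -0.74 (SE 0.188), and enriched in the PABPC RIP, at 1.15 (SE 0.193), like PGAM1. PGAM1 minus BPGM was -0.16 with PABPN (95% interval -0.64 to 0.33) and 0.57 with PABPC (95% interval 0.067 to 1.07). ENO2, ENO3 and LDHC were far less abundant than the members, at 1.65, 1.05 and 1.99 RPM per kilobase in input.

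**Figure D5:**
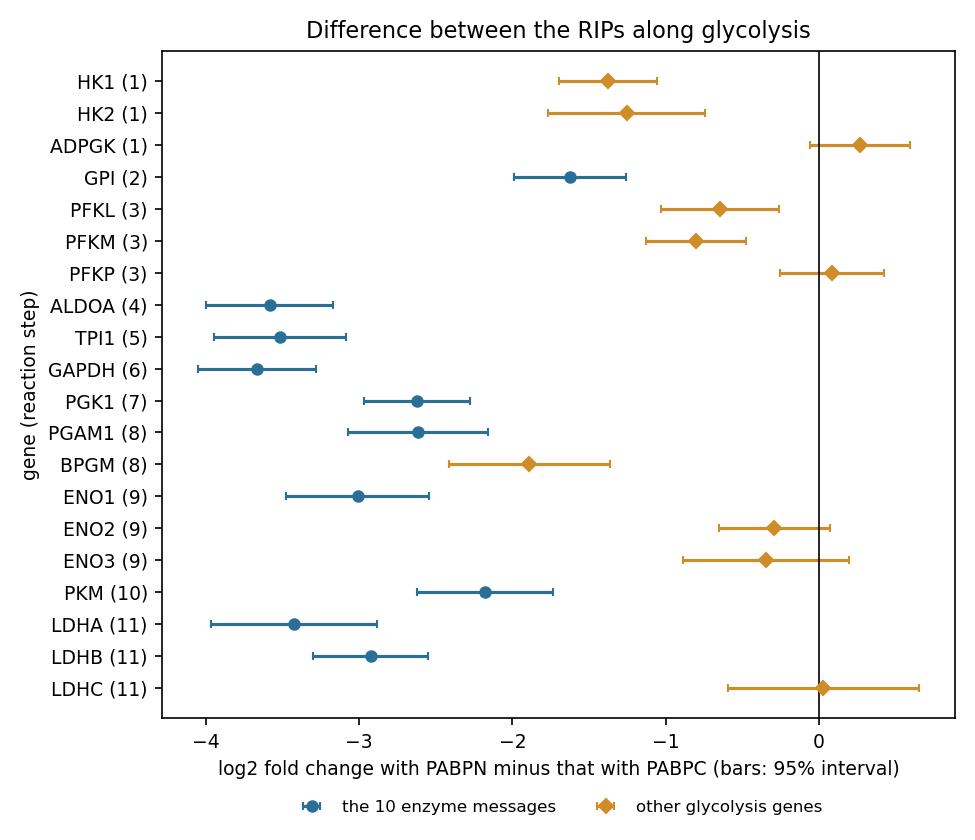
PABPN log2 fold change minus PABPC log2 fold change, with bars for the 95% interval, for the 10 enzyme messages (blue circles) and the 10 other tested glycolysis genes (orange diamonds), ordered by reaction step from hexokinase (1) to lactate dehydrogenase (11). All 10 messages lie between -3.66 and -1.62, and the other genes between -1.89 (BPGM) and 0.27 (ADPGK).

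Pathways that feed or drain glycolysis were counted in the same way. The shares of all genes were 14.6% depleted from PABPN, 38.4% enriched with PABPC and 33.4% higher with PABPC in the difference. All 7 genes of the pentose phosphate pathway were tested, 6 of them were depleted from PABPN and 5 enriched with PABPC, and all 7 were higher with PABPC in the difference. PGD, the dehydrogenase that releases CO2, had the largest difference of that list, -2.46 (SE 0.207), followed by TKT, the transketolase, at -2.06 (SE 0.217), and PGLS at -1.08 (SE 0.257) and RPE at -0.62 (SE 0.199) had the smallest. Of the 12 tested genes that bring pyruvate into mitochondria, 6 were depleted from PABPN and 2 enriched with it. With PABPC, 9 were enriched and 1 was depleted, and in the difference 7 were higher with PABPC. PDHB, a subunit of pyruvate dehydrogenase, had a difference of -2.69 (SE 0.208) and MPC2, of the mitochondrial pyruvate carrier, one of -2.50 (SE 0.180). PDP2, a phosphatase that activates pyruvate dehydrogenase, and PDK1, a kinase that inhibits it, did not pass in the difference, at 0.11 (SE 0.237) and 0.27 (SE 0.157).

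Of the 20 citric acid cycle genes, 12 were depleted from PABPN, 11 enriched with PABPC and 15 higher with PABPC in the difference, with a median difference of -1.18. MDH2, the mitochondrial malate dehydrogenase, had the largest difference of that list, -2.91 (SE 0.163), and IDH2 stood at -2.13 (SE 0.278). SUCLG2, the GTP-forming succinyl-CoA ligase subunit, went the other way, at 1.52 (SE 0.127), with a PABPC log2 fold change of -2.0 (SE 0.0922), while SUCLA2, the ATP-forming subunit, had a difference of 0.21 (SE 0.220) that did not pass. Among 11 tested genes of glycolytic control and transport, 3 were depleted from PABPN, 5 enriched with PABPC and 1 depleted from it. In the difference, 4 of the 11 were higher with PABPC and 2 higher with PABPN. BSG, the chaperone of the lactate transporters, had a difference of -2.59 (SE 0.177) and SLC2A1, the main glucose transporter, one of -1.77 (SE 0.186). In the opposite direction, the bifunctional regulators of phosphofructokinase PFKFB1, at 2.11 (SE 0.351), and PFKFB3, at 0.65 (SE 0.171), were higher with PABPN. Of the 3 tested gluconeogenesis genes, only 1 was called in the difference, G6PC3, a glucose phosphatase, higher with PABPC at -2.19 (SE 0.184). PC, pyruvate carboxylase, did not pass, at 0.35 (SE 0.192). PCK2, a carboxykinase, stood at -0.97 with an SE of 1.16 that leaves its direction unknown. Over these 6 lists together, 31 of 63 tested genes were depleted from PABPN, 34 were enriched with PABPC and 39 were higher with PABPC in the difference, against 10 of 10 members in each and 14.6%, 38.4% and 33.4% of all genes. In the opposite direction, 3 were enriched with PABPN, 5 depleted from PABPC and 3 higher with PABPN. The shares enriched with PABPC among the other glycolysis enzymes, 3 of 10, and in control and transport, 5 of 11, are near that of all genes.

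The protein coding genes outside the lists that lay nearest to the members' medians, by the distance in the 2 log2 fold changes over the 2 comparisons, included TUBA1C, PDCL3, ATP5F1B and TUBB4B. The nearest was TUBA1C, an alpha tubulin, whose log2 fold change was -1.55 (SE 0.163) in the PABPN RIP and 1.27 (SE 0.167) in the PABPC RIP, a distance of 0.062. ATP5F1B, the beta subunit of the mitochondrial ATP synthase, stood at -1.78 (SE 0.103) and 1.22 (SE 0.110). The distance was 0.180 for PDCL3 and 0.213 for TUBB4B, a beta tubulin.

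Several members have many processed copies in the genome, retrotransposed from the mRNA, which share sequence with their parent. The tables held 77 such copies by symbol, 52 of them of GAPDH. Their summed baseMean came to at most 0.590% of the parent's in any member but PGAM1, where 8 copies came to 4.99% (PABPN table) and 1.45% (PABPC table). The filter of baseMean 50 was passed by 1 copy for PABPN and by 3 for PABPC. Because baseMean includes the RIP libraries, these counts follow the fold changes and are no separate result. The values of the copies are uncertain because reads can fall on parent or copy. TPI1P1 and GAPDHP1 had PABPC log2 fold changes of 2.49 (SE 0.274) and 2.08 (SE 0.272). Both passed the filter only for PABPC, with baseMean 77.6 and 70.2, against 19.9 and 18.7 for PABPN. Their enrichment calls thus depend on the RIP in which they are high. With PABPN, below the filter, they stood at -1.16 (SE 0.503) and -2.40 (SE 0.514). PGAM1P5 passed the filter only for PABPN, with baseMean 78.5 against 49.0 for PABPC. PGAM1P5 was enriched with PABPN, at 0.74 (SE 0.236, adjusted p = 0.00542 from DESeq2), where PGAM1 itself was depleted, and stood at -0.076 (SE 0.283) with PABPC. How far reads exchanged between copies and parents enter the members' values was not tested.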

How the data were processed

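Sequencing reads of 75 nt from 3 input, 3 PABPN RIP and 3 PABPC RIP libraries of HEK293T cells, prepared with a stranded ribodepletion kit, were aligned by the authors to hg38 with STAR. They were counted with featureCounts 2.0.2 (overlap of at least 20 bases) over exons and introns together, on an annotation cleared of overlapping stretches. Genes with transcription running in from upstream were removed, and the authors compared each RIP with input in DESeq2, for which the design formula and version are not given in the sources used here. The authors deposited a signal column, baseMean, the mean of counts over size factors in 6 libraries. The log2 columns that the authors deposited hold RIP against input as a fold change, with a standard error. The p-value columns that the authors deposited hold the Wald p and its Benjamini-Hochberg adjusted value. These comparison columns are the authors' own results, were read as deposited and are no independent fit, so p-values measure the spread between these 3 replicates a group.

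Group means were worked out from baseMean and fold change, depth from the baseMean of genes with 1 read, and the difference between the RIPs from both fold changes with the root of the summed squared standard errors, which counts the input error in both terms and is then too wide. The calculations ran in Python 3.11.15 with pandas 2.3.3 and SciPy 1.17.1 and used the authors' cut-offs. The code was run on simulated fold changes. Their noise had the same standard errors that the test uses, so this checks the code and not the standard errors. The members and pathway lists were chosen with earlier results of these data known. Genes were named by rule: all members, every tested gene of the other glycolysis list, the 2 highest and 2 lowest differences of each other list, the 3 copies with the highest baseMean, and the 5 nearest protein coding genes, of which 1 is not reported here. ALDOC and MLXIP had no row in the tables. The cell line was taken from the labels and not checked with markers. Alternatives were a log2 cut-off of 1, an adjusted p of 0.05, a test of changes beyond 0.5, centring, scaling by total reads and a baseMean of 200.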

Additional observations from a re-analysis of the deposited data

Results flagged for a closer look

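The log2 fold change with PABPN minus that with PABPC was tested for each gene, and the values below passed (adjusted p of at most 0.01 and beyond 0.5). Over all 14581 tested genes, 33.4% passed as higher with PABPC and 36.1% as higher with PABPN. Passing was therefore common and does not by itself set a gene apart. For the members it was -3.66 for GAPDH, -3.58 for ALDOA, -3.52 for TPI1, -3.42 for LDHA, -3.01 for ENO1, -2.92 for LDHB, -2.62 for PGK1, -2.62 for PGAM1, -2.18 for PKM and -1.62 for GPI. Among other glycolysis genes it was -1.89 for BPGM, -1.38 for HK1, -1.25 for HK2, -0.80 for PFKM and -0.64 for PFKL. In control and transport it was -2.59 for BSG and -1.77 for SLC2A1, and, in the opposite direction, 2.11 for PFKFB1 and 0.65 for PFKFB3. It was -2.19 for G6PC3 of gluconeogenesis. In the pentose phosphate pathway it was -2.46 for PGD, -2.06 for TKT, -1.08 for PGLS and -0.62 for RPE. At the entry of pyruvate into mitochondria it was -2.69 for PDHB and -2.50 for MPC2. In the citric acid cycle it was -2.91 for MDH2, -2.13 for IDH2 and, in the opposite direction, 1.52 for SUCLG2. The named genes of each pathway other than glycolysis are the extremes of their list and have large values by that choice.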

How the results depend on the processing

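All 10 members stayed depleted from PABPN, enriched with PABPC and higher with PABPC in the difference with an adjusted p of 0.05, after centring on the median of all genes and after scaling by total reads, and no member's value changed direction. A log2 cut-off of 1 left 8 members with PABPN, without GPI and PGAM1, and 8 with PABPC, without GPI and PKM. Testing for changes beyond 0.5 left 8 with PABPN, where the adjusted p was 0.864 for GPI and 0.0999 for PGAM1, and 9 with PABPC, where it was 0.0162 for PKM. The difference kept all 10 members under each of these settings. The shares of all genes that pass the cut-off of 1 or the test beyond 0.5 are not given here. The shares of 14.6%, 38.4% and 33.4% belong to the cut-off of 0.5, so the member counts under stricter settings stand without a background. Over the other lists, a log2 cut-off of 1 left 11 of the 31 genes depleted from PABPN and 17 of the 34 enriched with PABPC, by the construction of the cut-off. Scaling by total reads moved the share of called genes that were higher with PABPN in the difference from 51.9% to 62.9%, and enriched genes among those called with PABPC from 54.3% to 47.0%. No paired analysis was possible because values per library were not analysed here, and for the same reason leaving out each replicate in turn was not run.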
